A study of Rattus norvegicus with 10 samples.

Results

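Interferon response genes of rat liver are described here animal by animal. The 9 genes are Stat2, Irf1, Irf7, Mx1, Mx2, Oas1a, Gbp2, Ifi27l2b and B2m, and their members on the array are all probe sets that the platform annotation gives to one of these symbols alone. That rule gave 12 probe sets, at least 1 for each of the 9 genes, of the 9378 genes and 12562 probe sets that carry a single gene symbol, among 15859 that are not array controls. The genes were chosen on the log2 changes and the signals by animal of this same comparison, so their values are given as a description without a test. Of the 12 probe sets, 11 passed the filter on dim signals and represented all 9 genes. The remaining one, probe set 1369202_at of Mx2, was too dim to enter the fit and is described by its signals and their spread.

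Liver RNA of 10 Wistar Han rats (strain CRL:WI (Han), 6 to 8 weeks old) was hybridised to Affymetrix rat expression arrays, 1 array per animal. RG3487, known as an agonist of a nicotinic acetylcholine receptor, was given to 5 rats by gavage at 180 mg/kg in 5 ml/kg. The other 5 rats received the vehicle, deionized water, by the same route and volume. The sample labels place the livers at 24 h after dosing and the series text at 2 h, and the 24 h of the samples is used here. The labels name no genotype and no further agent for either group, and the sources used here do not name the sex, the array batch or the scan date. The rats lived in groups of 5, so a cage effect and a drug effect may coincide, and they cannot be told apart. Nothing states a sort or a dissection of cell types, and all values are from whole liver pieces, in which fewer cells of a type and less RNA per cell cannot be told apart. All 14 listed hepatocyte markers were measured. On the deposited scale their summed signal was 78943 to 91812 in RG3487 livers and 93750 to 99661 in vehicle livers. The sign of the difference in their mean log2 level depended on the scaling. The values are signal intensities on a linear scale, and a probe set's level is never set against that of another probe set.

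Interferons are secreted proteins that warn cells of viral infection. Type I interferons bind a receptor whose kinases, Jak1 and Tyk2, phosphorylate Stat2. A complex that holds Stat2 and Irf9 binds the interferon-stimulated response element (ISRE) in the promoters of antiviral genes. Interferon gamma acts at gamma-activated sites (GAS) and induces Irf1, while Irf7 is itself induced and amplifies the production of type I interferons. In liver the response is known in hepatocytes as well as in macrophages and other resident immune cells.

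Promoter sequences of 7 of the 9 genes were at hand from RefSeq (build GRCr8), each 250 bases before to 50 bases after the annotated transcription start used in that table. For Ifi27l2b and Mx2 no such sequence was used. An ISRE-like stretch, searched as GAAANNGAAA on both strands, stood in 4 of the 7 windows (Irf7, Gbp2, Oas1a and B2m), and in 3.92% of 33469 rat promoters of the same length. A GAS, searched as TTCNNNGAA, which reads as its own reverse complement, stood in 2 of the 7 (Irf1 and Oas1a) and in 8.87% of all promoters. A match describes letters in the window and is not a shown binding site, and the windows of Stat2 and Mx1 held neither string. The promoters of Oas1a and Irf7 are shown whole because these genes varied widely between RG3487 animals, and the matches of the other genes are shown with 10 bases on each side, with the matched letters in capitals. The Oas1a window is chr12:41330216-41330515 on the plus strand. Its capitals mark the GAS beginning 199 bases before the start and 2 overlapping ISRE-like stretches beginning 41 and 35 bases before it. The Irf7 window is chr1:205799974-205800273 on the minus strand, with an ISRE-like stretch beginning 69 bases before the start and read on the opposite strand. The genes themselves are annotated at chr12:41330423-41341130 (Oas1a) and chr1:205796956-205800543 (Irf7). The starts used and the ISRE-like stretches of both genes thus lie inside the annotated gene spans. The shorter windows are Gbp2 at chr2:234005686-234005715, B2m at chr3:129549170-129549199 and Irf1 at chr10:38417783-38417811, all on the plus strand. The match begins 31 bases before the start in Gbp2, where it reads on the opposite strand, 150 bases before it in B2m and 142 bases before it in Irf1.
Oas1a: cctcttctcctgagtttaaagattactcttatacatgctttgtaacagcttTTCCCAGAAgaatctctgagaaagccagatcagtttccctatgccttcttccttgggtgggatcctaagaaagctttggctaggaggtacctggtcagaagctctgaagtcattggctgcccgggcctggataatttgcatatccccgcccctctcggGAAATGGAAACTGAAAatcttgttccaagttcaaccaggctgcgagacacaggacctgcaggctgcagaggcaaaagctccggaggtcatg
Irf7: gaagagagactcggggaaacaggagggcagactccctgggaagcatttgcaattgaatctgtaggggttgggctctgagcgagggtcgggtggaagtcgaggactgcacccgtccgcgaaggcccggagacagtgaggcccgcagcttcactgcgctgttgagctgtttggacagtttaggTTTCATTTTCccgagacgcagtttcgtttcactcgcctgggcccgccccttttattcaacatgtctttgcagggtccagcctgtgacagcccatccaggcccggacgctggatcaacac
Gbp2: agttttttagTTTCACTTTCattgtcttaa
B2m: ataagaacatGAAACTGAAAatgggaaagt
Irf1: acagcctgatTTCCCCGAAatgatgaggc

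The comparison asks how the liver responded to RG3487. Among these genes, which were chosen on it, 2 had a probe set without overlap between groups, and others spread widely between animals. Ifi27l2b was 1.61-fold higher in RG3487 livers with no overlap between groups, and one B2m probe set was 1.11-fold lower, also with no overlap. The sign of that B2m change depended on the scaling, and the groups overlapped on the other B2m probe set. Irf7, Mx1, Mx2 and Oas1a overlapped between groups, and their highest signals came from the same pair of RG3487 rats, numbers 1 and 4. Over all probe sets, limma's fit called 27.7% at an adjusted p below 0.05 (20.5% higher and 7.16% lower), and 18.4% had groups that did not overlap. Among the 11 probe sets of the 9 genes in the fit, 1 was called higher and 1 lower, and the same 2 did not overlap. Since the genes were chosen on this contrast, nothing is read from those counts. Their median log2 change was 0.18, against 0.083 over all 11894 probe sets.

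**Figure D1:**
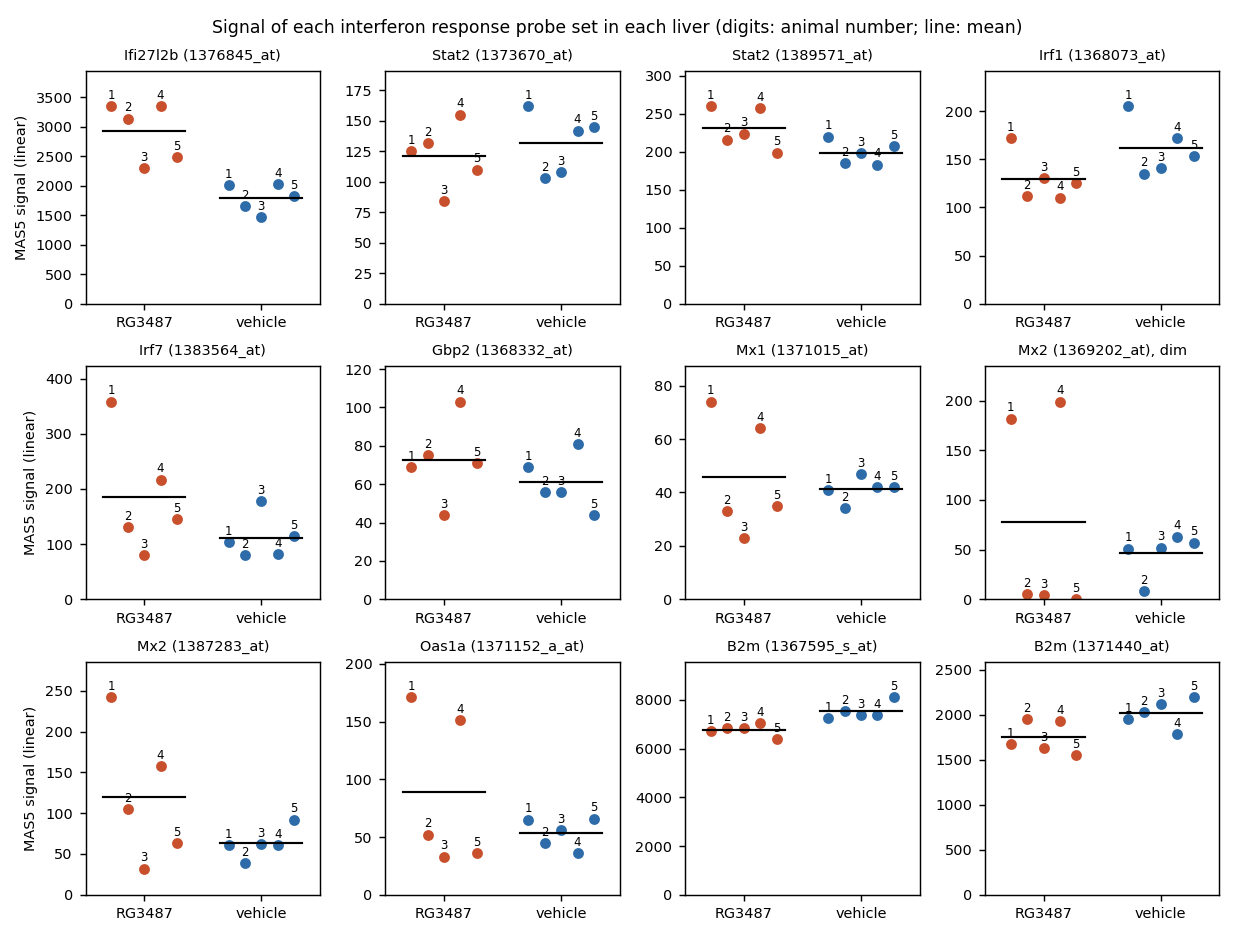
Signal intensity (linear scale, in panels each with its own axis) of the 12 probe sets in each animal, with RG3487 animals on the left and vehicle animals on the right of each panel (points with the animal's number; lines are group means). The signals of Irf7, Mx1, Mx2 and Oas1a are spread more widely in RG3487 livers, while Ifi27l2b is higher in every RG3487 animal than in any vehicle animal.

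The transcription factors are given first. Stat2, the partner of Irf9 in the complex that binds the ISRE, had 2 probe sets. Its probe set 1389571_at had signals of 260, 216, 224, 257 and 199 in RG3487 animals 1 to 5, against 220, 185, 198, 183 and 207 in vehicle animals 1 to 5. The RG3487 mean was 231 ± 27 and the vehicle mean 199 ± 15 (SD, n = 5 each), a log2 change of 0.20 ± 0.08 (SE). RG3487 animals 1, 3 and 4 lay above every vehicle animal, and the groups overlapped. Its other probe set, 1373670_at, had signals of 125, 132, 84, 155 and 110 in RG3487 livers, against 162, 103, 108, 142 and 145 in vehicle livers. That gave a log2 change of -0.11 ± 0.15 (-0.20 to -0.0059 with 1 animal left out), so the 2 Stat2 probe sets disagreed in sign, and neither difference passed the fit's threshold.

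Irf1, a transcription factor that is a direct target of interferon gamma, had the lower mean in RG3487 livers. Its signals were 172, 112, 130, 110 and 125 in RG3487 livers, against 205, 135, 141, 172 and 153 in vehicle livers. RG3487 animals 2 to 5 lay below every vehicle animal, and RG3487 animal 1 lay in the upper part of the vehicle range. The means were 130 ± 25 in RG3487 livers and 161 ± 28 in vehicle livers, a log2 change of -0.28 ± 0.13 that did not pass the threshold.

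Irf7, the factor that amplifies type I interferon production, had signals of 358, 131, 80, 217 and 145 in RG3487 livers, against 104, 80, 178, 82 and 114 in vehicle livers. Animals 1 and 4 alone exceeded every vehicle animal, and animal 3 equalled the lowest vehicle animal. The highest RG3487 signal was 4.48 times the lowest, against 2.23 times among vehicle livers. The means of 186 ± 108 in RG3487 livers and 112 ± 40 in vehicle livers gave a log2 change of 0.56 ± 0.31, with a 95% interval of -0.11 to 1.23. It was 0.30 without RG3487 animal 1 and 0.79 without RG3487 animal 3, the lowest and highest values with 1 animal left out.

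Antiviral effectors follow. Mx1 and Mx2 encode dynamin-like GTPases that block steps of virus replication. Mx1 had signals of 74, 33, 23, 64 and 35 in RG3487 livers, against 41, 34, 47, 42 and 42 in vehicle livers. Animals 1 and 4 lay above and animals 2 and 3 below every vehicle animal, so that the group means, 45.8 ± 22 in RG3487 livers and 41.2 ± 4.7 in vehicle livers, nearly coincided. The log2 change was 0.043 ± 0.20, and its sign turned when arrays were centred on their median (-0.035) or when RG3487 animal 1 (-0.11), RG3487 animal 4 (-0.068) or vehicle animal 2 (-0.0043) was left out. Mx1's signal lay close to the filter's limit of 40.2, which leaves its level imprecise.

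The Mx2 probe set that passed the filter, 1387283_at, had signals of 242, 105, 32, 158 and 63 in RG3487 livers, against 61, 39, 62, 61 and 92 in vehicle livers. RG3487 animals 1, 2 and 4 exceeded every vehicle animal, and animal 3 had the lowest signal of all 10. The means were 120 ± 83 in RG3487 livers and 63.0 ± 19 in vehicle livers, a log2 change of 0.58 ± 0.37. Over all 10 animals it did not pass the fit's threshold. Leaving out 1 animal gave 0.29 without RG3487 animal 1 up to 0.90 without RG3487 animal 3. Mx2 was chosen with its signals by animal known, so these values are a description. The dim Mx2 probe set had signals of 182, 5, 4, 199 and 0 in RG3487 livers, against 51, 8, 52, 63 and 57 in vehicle livers. There too animals 1 and 4 exceeded every vehicle animal, but animal 2, high on the other Mx2 probe set, had a signal of 5. The sign of the group difference of the dim probe set was not settled, at -0.23 on the log2(signal + 16) scale, 0.079 with a pseudocount of 64, and a higher mean signal in RG3487 livers. Mx1 and Mx2 are related sequences, and cross-hybridisation between them was not tested.

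Oas1a, an oligoadenylate synthetase whose product activates the RNA-degrading enzyme RNase L, had signals of 171, 52, 33, 151 and 36 in RG3487 livers, against 65, 45, 56, 36 and 66 in vehicle livers. Only animals 1 and 4 lay above the vehicle range. The highest RG3487 signal was 5.18 times the lowest, against 1.83 times in vehicle livers. The means of 88.6 ± 67 in RG3487 livers and 53.6 ± 13 in vehicle livers gave a log2 change of 0.37 ± 0.36, which was 0.097 without RG3487 animal 1, 0.14 without RG3487 animal 4 and 0.58 without RG3487 animal 3. Gbp2, a guanylate-binding GTPase that acts on intracellular pathogens, had signals of 69, 75, 44, 103 and 71 in RG3487 livers, against 69, 56, 56, 81 and 44 in vehicle livers. Animal 4 alone exceeded every vehicle animal, and the log2 change of Gbp2 was 0.18 ± 0.17. It was 0.066 without RG3487 animal 4, 0.095 without vehicle animal 5 and 0.31 without RG3487 animal 3.

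Ifi27l2b belongs to the family of Ifi27, small membrane proteins induced by type I interferons. Its signals were 3343, 3135, 2295, 3345 and 2477 in RG3487 livers, against 2010, 1657, 1471, 2031 and 1821 in vehicle livers. Every RG3487 animal lay above every vehicle animal, and within the RG3487 group animals 1 and 4 were again the highest and animal 3 the lowest. The means of 2919 ± 498 in RG3487 livers and 1798 ± 238 in vehicle livers gave a log2 change of 0.69 ± 0.12, with a 95% interval of 0.42 to 0.95. Its relative Ifi27, from the list of antiviral genes, had signals of 5041, 4547, 3655, 4706 and 4181 in RG3487 livers, against 4566, 4848, 4714, 4879 and 4940 in vehicle livers. Ifi27 had a log2 change of -0.12 ± 0.07 (limma adjusted p = 0.24) and did not pass; it was named after its values were seen.

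B2m is the light chain of MHC class I molecules, which present peptides to T cells. Probe set 1367595_s_at had signals of 6713, 6854, 6844, 7047 and 6377 in RG3487 livers, against 7241, 7557, 7363, 7389 and 8112 in vehicle livers. The groups did not overlap, and the log2 change of B2m there was -0.15 ± 0.04. The sign turned to 0.014 after quantile normalization and to 0.041 after scaling on the hybridisation controls, and stayed negative at -0.23 with arrays centred on their median, so the direction depends on the scaling. Probe set 1371440_at had 1674, 1951, 1628, 1931 and 1548 in RG3487 livers, against 1947, 2027, 2117, 1782 and 2193 in vehicle livers. Its log2 change was -0.21 ± 0.08, and the groups overlapped.

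The spread between animals differed between the groups for several of these genes. On the log2 scale, the SD among RG3487 livers was above that among vehicle livers for 11 of the 12 probe sets, the exception being B2m 1367595_s_at. Within the fit, 10 of the 11 probe sets had the larger SD in RG3487 livers, against 48.8% of all probe sets. Some SDs were close between groups, with ratios of RG3487 over vehicle of 1.05 for Irf1 and 1.14 for Stat2 1373670_at. The ratio was 1.30 for B2m 1371440_at, 1.31 for Ifi27l2b and 1.34 for Gbp2. The SD was 0.95 in RG3487 livers and 0.34 in vehicle livers for Mx2 1387283_at. It was 0.93 in RG3487 livers and 0.28 in vehicle livers for Oas1a, and 0.74 in RG3487 livers and 0.41 in vehicle livers for Irf7. Mx1 had the largest ratio of the 12, with an SD of 0.51 in RG3487 livers and 0.12 in vehicle livers, 4.23 times as large. Dim probe sets vary more, so each was also ranked within its decile of mean signal over all probe sets. An SD among RG3487 livers at least as large was found in 0.168% of the decile for Mx2, 0.336% for Oas1a, 0.505% for Irf7 and 1.43% for Mx1. Among vehicle livers the shares were 5.89% for Mx2, 13.0% for Oas1a, 2.69% for Irf7 and 80.8% for Mx1. For B2m 1367595_s_at, 86.9% of its decile had an SD at least as large in RG3487 livers. These ranks describe genes that were chosen with their spread in view.

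**Figure D2:**
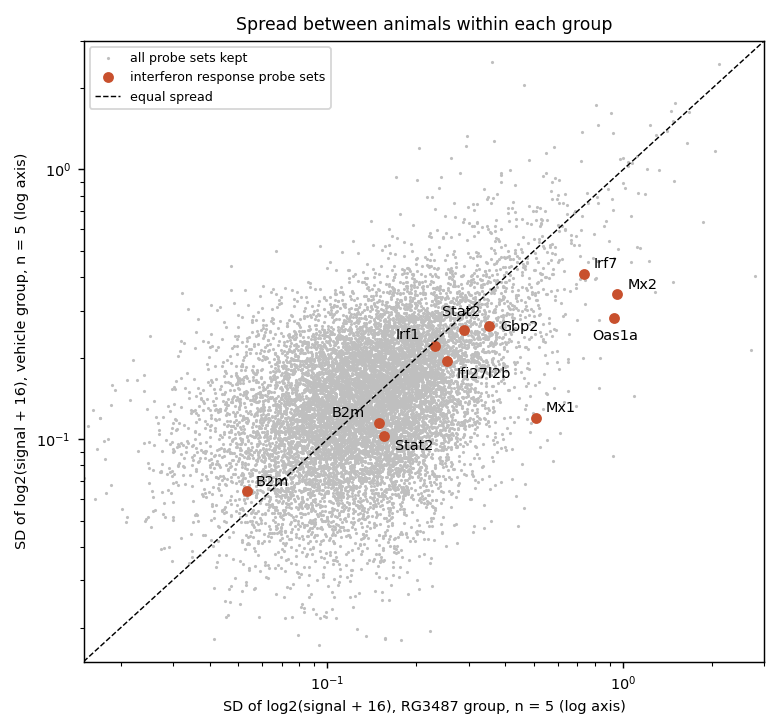
Standard deviation of log2(signal + 16) among the 5 RG3487 livers (horizontal, log axis) and among the 5 vehicle livers (vertical, log axis) for all 11894 probe sets in the fit (grey) and the 11 interferon response probe sets among them (red). Points under the dashed line of equal spread varied more among RG3487 livers, and Mx1, Mx2, Oas1a and Irf7 lie well under it.

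The same animals were high or low from gene to gene. RG3487 animals 1 and 4 had the highest 2 signals of their group in 7 of the 12 probe sets, animals 2 and 4 in 4, and animals 1 and 3 in 1, that of Irf1. Among the 11 in the fit, in which Stat2 and B2m have 2 probe sets each, animals 1 and 4 were the highest pair in 6. Over all genes in the fit, each taken by 1 probe set, animals 1 and 4 were the highest pair in 8.59%. Animals 2 and 4 were so in 9.69% and animals 1 and 3 in 9.24%. Animal 3 had the lowest RG3487 signal in 7 probe sets, animal 5 in 4 and animal 4 in 1. Over all genes in the fit, animal 3 was the lowest in 30.1%, animal 5 in 16.7% and animal 4 in 16.8%. Animal 3 was thus often the lowest outside these genes too. No single pair stood out in the vehicle group, where pairs 1 and 4, 1 and 5, and 3 and 5 were each the highest in 3 of the 12 probe sets. Averaged over the 9 genes, the log2 deviation from the group mean was 0.51, -0.082, -0.53, 0.35 and -0.25 in RG3487 animals 1 to 5. In vehicle animals 1 to 5 it was 0.11, -0.20, 0.030, -0.019 and 0.076. The RG3487 values thus spanned more than 1 log2 unit and the vehicle values a narrower range. Among the 11 probe sets in the fit, animals 1 and 4 and no other RG3487 animal exceeded all vehicle animals in 3 (Irf7, Mx1 and Oas1a). The dim Mx2 probe set, outside the fit, had the same pattern. Of the 7727 genes in the fit, 89 (1.15%) showed it. The 9 genes were chosen with their signals by animal known, so nothing is read from that difference. Animals 1 and 4 were singled out after these values were seen.

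**Figure D3:**
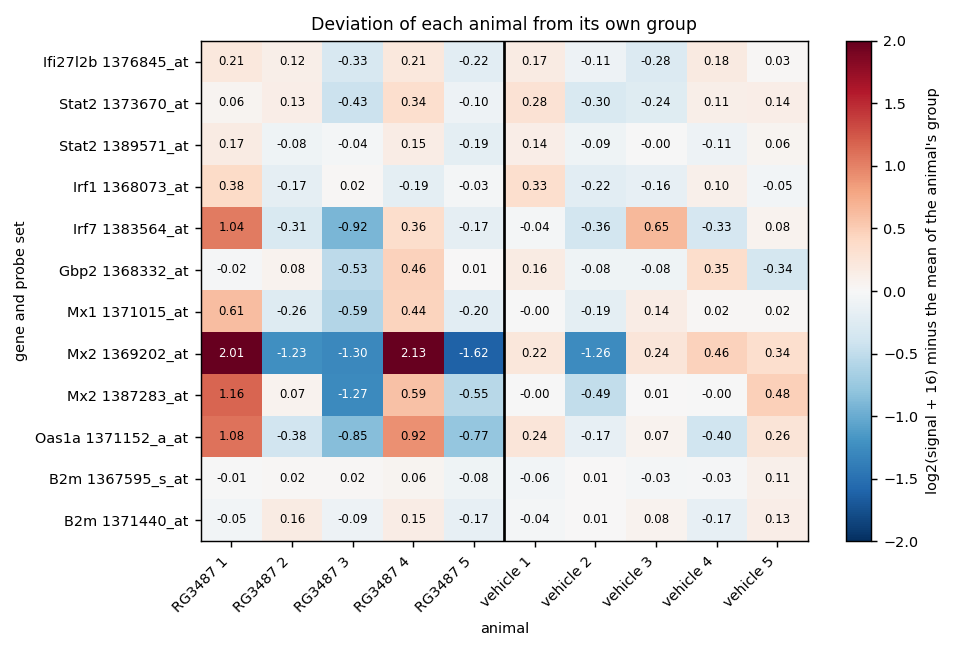
Deviation of each animal's log2(signal + 16) from its own group's mean for the 12 probe sets, with the 5 RG3487 animals left of the 5 vehicle animals; the colour and the number in each cell give the deviation. RG3487 animals 1 and 4 are above and animals 3 and 5 below their group mean for most probe sets, with mean deviations of 0.51, 0.35, -0.53 and -0.25 over the 9 genes.

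Immune cells carry many of these transcripts, and their markers are given beside the pattern. Of 23 leukocyte markers 7 were measured and none was listed at 0. Their summed signal was 616, 693, 525, 844 and 696 in RG3487 animals 1 to 5 and 667 to 743 in vehicle animals. Animal 4 was the highest of all 10 for these markers, animal 3 the lowest, and animal 1 lay below every vehicle animal. Of 16 Kupffer cell and macrophage markers 14 were measured and none was listed at 0, with a summed signal of 5772, 6400, 5613, 6851 and 5743 in RG3487 livers and 6339 to 7237 in vehicle livers. The mean log2 level of the Kupffer list differed by -0.13 (exact permutation p = 0.0952, adjusted over 7 marker lists 0.208) and that of the leukocyte list by -0.074 (exact permutation p = 0.492, adjusted 0.574), both RG3487 minus vehicle. Animal 4 was thus the highest RG3487 animal in both lists and animal 1 in neither. In the Kupffer list limma called 3 of 14 genes lower (Cd14, Cd163 and C1qb) and 1 higher (Lyz2). In the leukocyte list it called none of 7. Among all genes 22.3% were called higher and 7.4% lower. The part of immune cells in the spread was not tested.

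Genes of the pathway outside the 9 were taken from 7 lists drawn up by role, of which 92 of 165 genes were measured above the filter and 18 were dimmer. limma called 12 of the 92 higher and 1 lower (adjusted p below 0.05 over all probe sets), against 22.3% higher and 7.4% lower among all 7727 genes (29.7% in all). The lists thus held no excess of calls over the background, and their median log2 change was 0.12, against 0.094 for all genes. The 12 became 7 without vehicle animal 2 and without vehicle animal 4, 6 without RG3487 animal 4 and 22 without RG3487 animal 3. The 1 lower call became 3 without vehicle animal 3, 2 without vehicle animal 4, 2 without RG3487 animal 1, 4 without RG3487 animal 2 and 3 without RG3487 animal 4. Under other scalings there were 6 higher calls after quantile normalization, 6 with arrays centred on their median and 44 with scaling on the hybridisation controls.

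Among receptors and their signalling, 1 of 11 measured genes rose and none fell, with a median log2 change of 0.11. Jak1, the kinase shared by the interferon receptors, rose to 1302 ± 46 in RG3487 livers, against 1077 ± 32 in vehicle livers (log2 change 0.27 ± 0.05, limma adjusted p = 0.0019). The 2 groups did not overlap for Jak1. Among nucleic acid sensors and adaptors, 1 of 6 rose. It was Ifih1, a sensor of long double-stranded RNA, with 118 ± 19 in RG3487 livers and 87.6 ± 13 in vehicle livers (0.37 ± 0.11, limma adjusted p = 0.0291).

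Among other interferon regulatory factors and their partners, 1 of 7 fell and none rose. Irf2bp2, a corepressor that binds Irf2, had signals of 89, 100, 94, 120 and 163 in RG3487 livers, against 583, 287, 205, 334 and 191 in vehicle livers. Its log2 change was -1.30 ± 0.25 (limma adjusted p = 0.00316), and all RG3487 animals lay below all vehicle animals. It was the largest change among the 13 called pathway genes, and in the RG3487 group its highest signal was in animal 5, not in animals 1 or 4.

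Of 37 measured antiviral genes 5 rose, none fell and 32 did not pass, with a median log2 change of 0.18. Nmi, a partner of STAT proteins, had 208 ± 23 in RG3487 livers and 135 ± 11 in vehicle livers, with no overlap (0.57 ± 0.08, limma adjusted p = 0.000697). Pnpt1, the mitochondrial polynucleotide phosphorylase, had 388 ± 44 in RG3487 livers and 282 ± 37 in vehicle livers, with no overlap (0.44 ± 0.10, limma adjusted p = 0.00724). Tdrd7, a tudor domain protein, changed by 0.26 ± 0.08 (limma adjusted p = 0.0286) and Parp9, of the ADP-ribosyltransferase family, by 0.38 ± 0.12 (limma adjusted p = 0.0295), both with overlapping groups. Sp110, a nuclear body protein named here after its values were seen, was the fifth (0.32 ± 0.10, limma adjusted p = 0.0327). Without 1 animal the 5 became 2 (RG3487 animal 1, RG3487 animal 4 or vehicle animal 2), 3 (vehicle animal 4) or 8 (RG3487 animal 3). Isg15, the ubiquitin-like modifier, was named after its values were seen. It had signals of 167, 101, 77, 150 and 112 in RG3487 livers, against 84, 63, 88, 57 and 123 in vehicle livers, and did not pass (limma adjusted p = 0.101).

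The antiviral list outside the 9 genes was also followed by animal. RG3487 animals 1 and 4 had the highest 2 signals of their group in 25 of its 37 genes (67.6%), against 8.59% of all genes measured. In the other lists the same pair was the highest in 1 of 11 receptor and signalling genes and 2 of 6 sensors. It was the highest in 1 of 7 other regulatory factors, 4 of 17 class I genes and 0 of 9 class II genes. It was so in 0 of the 5 measured genes of the interferon and chemokine list, none of them an interferon. Over all 92 pathway genes it was the highest in 33 (35.9%). Animal 1 lay above the group mean in 33 of the 37, animal 4 in 34 and animal 3 in 3. Of all 7727 genes, animal 1 lay above it in 3850, animal 4 in 4221 and animal 3 in 3308. The median deviation over the 37 genes was 0.20, -0.037, -0.23, 0.12 and -0.13 in RG3487 animals 1 to 5, and 0.051, -0.053, 0.12, -0.17 and 0.079 in vehicle animals 1 to 5. Vehicle animals also differed from one another, with animal 3 above the group mean in 31 of the 37 genes and animal 4 in 8, and the most frequent highest pair was animals 3 and 5, in 10 of the 37. The SD was larger in RG3487 livers than in vehicle livers for 25 of the 37 genes (67.6%), against 49.3% of all genes. These genes were measured on the same arrays as the 9, and animals 1 and 4 were singled out on these data.

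**Figure D4:**
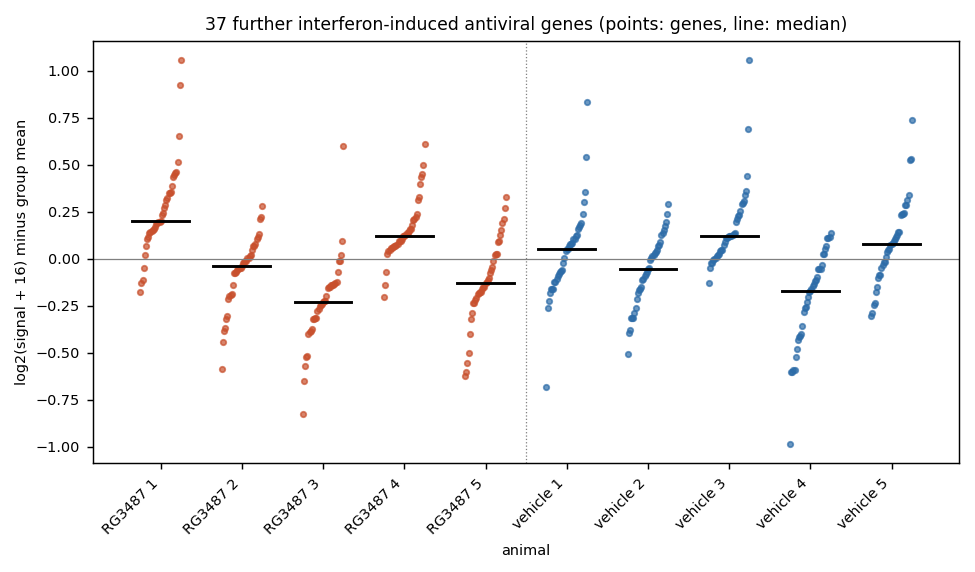
Deviation of log2(signal + 16) from the group mean for the 37 antiviral genes outside the 9, by animal, with the RG3487 animals left of the vehicle animals; each point is a gene and each black line the median. The medians of RG3487 animals 1 and 4 are 0.20 and 0.12 and that of animal 3 is -0.23, while the vehicle medians run between -0.17 and 0.12.

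Of 17 measured genes of MHC class I and peptide loading, 5 rose and none fell, with a median log2 change of 0.17. Among all genes 22.3% were called higher, with a median log2 change of 0.094. Under other scalings 3 to 8 of the 17 were called higher. Psmb9 and Psmb10 are catalytic subunits of the immunoproteasome, which cuts peptides for class I molecules. Psmb9 had 318 ± 69 in RG3487 livers and 200.2 ± 21 in vehicle livers (0.61 ± 0.13, limma adjusted p = 0.0064). Psmb10 had 197 ± 18 in RG3487 livers and 145 ± 7.7 in vehicle livers (0.40 ± 0.07, limma adjusted p = 0.00224). Psme2, a subunit of a proteasome activator, had 754 ± 66 in RG3487 livers and 587 ± 42 in vehicle livers (0.35 ± 0.07, limma adjusted p = 0.00437). None of these 3 overlapped between groups. Tap2, of the peptide transporter, changed by 0.32 ± 0.10 with overlapping groups (limma adjusted p = 0.0351), and Psme1, the other activator subunit and named after its values were seen, by 0.17 ± 0.06 (limma adjusted p = 0.0431). The class I light chain B2m, as given above, had a negative log2 change on both of its probe sets on the deposited scale. The 5 calls became 3 when any one of vehicle animals 1 to 4 or RG3487 animals 2, 4 or 5 was left out.

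Of 9 measured MHC class II genes limma called none, against 29.7% of all genes called in either direction. The smallest p was that of Ctss, the protease cathepsin S, with 592 ± 71 in RG3487 livers and 706 ± 77 in vehicle livers (-0.25 ± 0.09, limma adjusted p = 0.0633). Among class II genes RG3487 animal 1 lay above its group mean in 1 of the 9 and animal 4 in 8. Of the list of interferons and interferon-induced chemokines 5 genes were measured, Il18, Cxcl9, Cxcl10, Cxcl11 and Ccl5, and no interferon was among them. limma called none of these 5 either. The smallest p there was that of Il18, a cytokine that promotes interferon gamma production, with 87.0 ± 5.5 in RG3487 livers and 105 ± 15 in vehicle livers (-0.22 ± 0.09, limma adjusted p = 0.0895).

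Some of these calls, with adjusted p not far below the threshold, were lost when any 1 of several animals was left out. Ifih1 lost its call without RG3487 animal 1 or 4 or vehicle animal 3, 4 or 5, with log2 changes of 0.31 to 0.37 then. Parp9 lost it without RG3487 animal 1 or 4 or vehicle animal 2 or 4, at 0.32 to 0.36. Tdrd7 lost it in 7 of 10 such fits, without RG3487 animal 1, 2, 4 or 5 or vehicle animal 2, 4 or 5, at 0.22 to 0.27. Tap2 also lost it in 7 of 10, without RG3487 animal 2, 4 or 5 or vehicle animal 1, 2, 3 or 4, at 0.27 to 0.33. All 4 also lost it after quantile normalization and with arrays centred on their median. Jak1, Irf2bp2, Nmi, Pnpt1, Psmb9, Psmb10 and Psme2 kept their calls in all 20 alternatives. Sp110 (limma adjusted p = 0.0327) and Psme1 (limma adjusted p = 0.0431), also called, were not followed one by one through the alternatives.

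**Figure D5:**
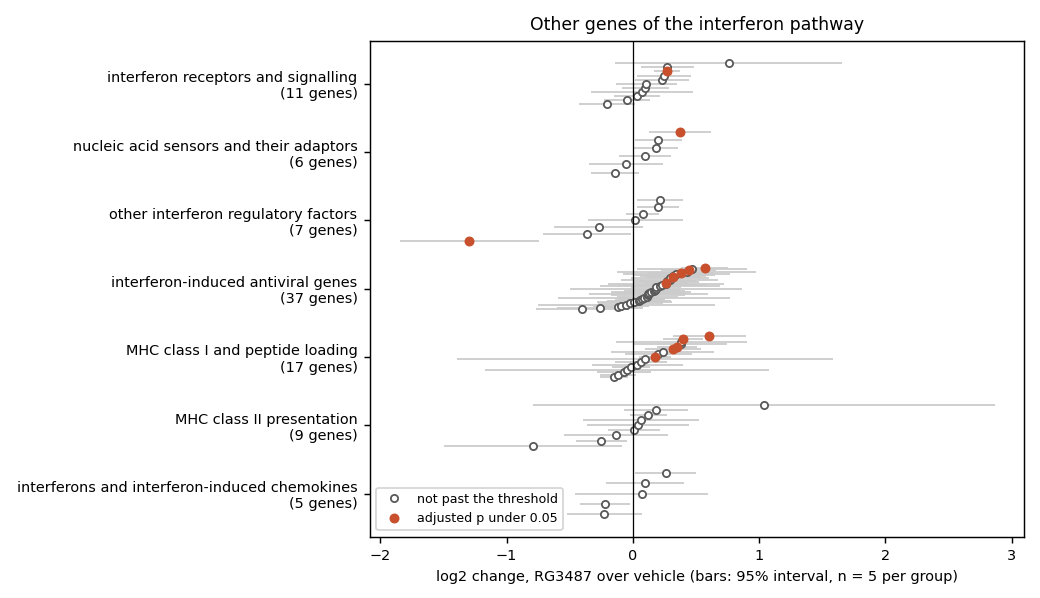
log2 change, RG3487 minus vehicle, of the 92 measured pathway genes outside the 9, by list; filled points passed limma's adjusted threshold of 0.05 and open points did not, and grey bars are 95% intervals. Filled points lie to the right of 0 for 12 genes, and Irf2bp2 at -1.30 is the only one to the left.

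The genes whose within-group deviations over the 10 animals were most like the mean deviation of the 9 were ranked among 7718 genes by Pearson's r, as a description, since all values come from the same arrays. Irf9, the DNA-binding partner of Stat2, was the first (r = 0.96, Spearman's rho = 0.92, and r = 0.90 without the 2 animals farthest from the median, RG3487 animals 1 and 3). Irf9 had signals of 265, 154, 109, 207 and 156 in RG3487 livers, against 195, 151, 167, 168 and 166 in vehicle livers. Its group means were close, at 178 ± 60 in RG3487 livers and 169 ± 16 in vehicle livers (0.017 ± 0.17), and the extremes of all 10 were RG3487 animals 1 and 3. Next came Cmtr1, a methyltransferase of the mRNA cap (r = 0.93, rho = 0.94, and r = 0.79 without those 2 animals). RT1-S3, a class I gene, had r = 0.93 and rho = 0.87 (r = 0.80 without them). E2f4, a cell cycle regulator, had r = 0.92 and rho = 0.93 (r = 0.91 without them). Tdrd7 had r = 0.92 and rho = 0.81 (r = 0.76 without them).

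Usp18, which removes Isg15 from proteins and dampens the type I receptor, was the sixth (r = 0.89, rho = 0.79, and r = 0.67 without those animals). It had signals of 304, 110, 32, 245 and 120 in RG3487 livers, against 68, 71, 82, 42 and 104 in vehicle livers. RG3487 animals 1, 2, 4 and 5 lay above every vehicle animal for Usp18, animals 1 and 4 the highest, and animal 3 lay below every vehicle animal. Its log2 change of 0.76 ± 0.41 did not pass (limma adjusted p = 0.19). Of the 6 genes, 4 stood on the pathway lists, as did 9 of the first 20 and 16 of the first 100, while those lists hold 92 of the 7718 genes ranked.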

How the data were processed

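The deposited table holds 1 signal intensity per probe set and array, on a linear scale and in whole numbers. The authors made the intensities with MAS5, per the submitters' processing notes, and the sources used here give neither its version nor its scaling target. Array means lay between 330 and 332, and array medians between 92 and 96 in RG3487 livers and 85 and 93 in vehicle livers. Detection calls were not used. The number of arrays limits the precision. Probe sets were named from the platform annotation, in which 12562 of 15859 carried 1 symbol, 332 several and 2965 none, and a probe set with several was not named. Signals were taken as log2(signal + 16), which understates changes of dim probe sets, and the dimmest 25% by mean over all arrays were left out, leaving 11894 probe sets. Groups were compared with limma 3.58.1 in R 4.3.3 (lmFit and eBayes with a trend, all 10 arrays, no covariate, Benjamini-Hochberg adjustment over all 11894). A gene on a pathway list is represented by its brightest probe set. Marker lists were compared by an exact two-sided permutation test over 252 regroupings, whose smallest possible p is 0.00794.

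The labels name different animals but do not say that they were dosed on separate occasions, and p-values measure the spread between these animals. The 9 genes and all lists were chosen with earlier results of these data known. Genes named are every probe set of the 9, up to 4 called genes per list with the smallest p or else the 1 with the smallest p, and the 6 genes most like the 9. Data were simulated for RG3487 versus vehicle with 200 of 11894 probe sets changed and independent normal noise of the same SD in both groups. The fit found 32.4% of 1.25-fold, 75.8% of 1.5-fold, 95.8% of 2-fold and 98.6% of 3-fold changes. Of its calls, 4.93% were false. These rates do not cover probe sets with unequal spread in the groups, such as Irf7, Mx1, Mx2 and Oas1a. Nor do they cover a share of changed probe sets as large as the share called here. Alternatives tried were pseudocounts of 1 and 64, quantile normalization, arrays centred on their median, scaling on the hybridisation controls, no filter, a filter at 50%, a replicate block, no trend, array weights, and leaving out each animal.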

Additional observations from a re-analysis of the deposited data

Results flagged for a closer look

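In 74 groups of 5 animals checked for a value far from the rest by Dixon's ratio, 2 exceeded the critical value of 0.71, and chance alone gives about 1 in 20. The dim Mx2 probe set 1369202_at had a low value in vehicle animal 2, whose signal was 8 against 51 to 63 in the other vehicle animals (ratio 0.862). E2f4, one of the genes most like the 9, had a high value in vehicle animal 1, whose signal was 156 against 140 to 143 in the other vehicle animals (ratio 0.805). No explanation was tested for either.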

How the results depend on the processing

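Ifi27l2b had log2 changes of 0.61 to 0.88 over the 20 alternatives. It was chosen on this contrast and the alternatives use the same arrays, so that range is only a description. Scaling moved the median log2 change of all genes, which was 0.094 as deposited, 0.020 after quantile normalization, 0.016 with arrays centred on their median, and 0.27 on the hybridisation controls. The probe sets called were 2443 higher and 852 lower (74.1% higher), 1418 higher after quantile normalization (54.3%), 1359 higher and 1335 lower with median centring (50.4%), and 6158 higher and 378 lower on the hybridisation controls (94.2%). Without 1 animal they were 1809 to 2566 higher and 682 to 887 lower. Pathway genes outside the 9 were called higher in 12, and in 6 after quantile normalization, 6 with median centring, 44 on the hybridisation controls, 19 with array weights and 6 to 22 without 1 animal. The 1 called lower became 2 with a pseudocount of 1, 5 after quantile normalization, 4 with median centring, 2 with the dimmest 50% left out, and 1 to 4 without 1 animal. Of the 9 genes' probe sets, the 1 called higher became 2 on the hybridisation controls and 1 to 2 without 1 animal, and the 1 called lower became 2 with median centring, 0 on the hybridisation controls, 0 without the trend and 1 to 2 without 1 animal. The dim Mx2 probe set, at -0.23, came to 0.079 with a pseudocount of 64. Signs also turned for Stat2 1373670_at (0.059 on the hybridisation controls), Mx1 (-0.035 with median centring, -0.11 to 0.19 without 1 animal) and B2m 1367595_s_at (0.014 after quantile normalization, 0.041 on the hybridisation controls). Replicate numbers did not pair the animals, since same-numbered animals correlated at -0.037 to 0.17 and 2 of 5 were closest to their own number. With a replicate block, 2098 probe sets were higher and 820 lower, and 2 pathway genes were lower. B2m 1367595_s_at was then not called and Irf1 1368073_at was. All calls among the 9 genes are a description, since the genes were chosen on this contrast. Marker lists (RG3487 minus vehicle) on the hybridisation controls came to 0.089 for leukocytes, 0.049 for Kupffer cells, 0.012 for endothelium, 0.031 for hepatocytes and 0.45 for the 1 bile duct marker measured. The Kupffer difference was -0.22 after quantile normalization and -0.21 with median centring, the stellate one -0.043 and -0.044, and the hepatocyte one -0.027 after quantile normalization. Without 1 animal the lists ran over -0.15 to -0.0098 (leukocytes), -0.18 to -0.10 (Kupffer cells), -0.18 to -0.15 (endothelium), -0.032 to 0.095 (stellate cells), 0.13 to 0.36 (bile duct), -0.28 to -0.15 (red cells) and -0.19 to -0.13 (hepatocytes). The cause of these shifts was not tested. Signals near the filter's limit, as for Mx1, Mx2 and Oas1a, limit what can be said of their levels.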

Other observations

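Other cell type markers, for which no gene list above gives values, were compared as RG3487 minus vehicle in mean log2 level, with p adjusted over 7 lists. The hepatocyte list differed by -0.16 with no overlap of the groups (exact permutation p = 0.00794, adjusted 0.0556). limma called 7 of its 14 genes lower and 1 higher, against 7.4% lower and 22.3% higher among all genes. The sign of that difference depended on the scaling, with 0.031 on the hybridisation controls. The highest signal of an array was 9113 to 10252 in RG3487 livers and 10418 to 11392 in vehicle livers. Its bearing on these bright markers was not tested. The endothelial list, with 8 of 11 markers measured, differed by -0.16 (exact permutation p = 0.0159, adjusted 0.0556). The stellate cell and fibroblast list, with 7 of 11 measured, differed by 0.034 (exact permutation p = 0.762, adjusted 0.762). The 2 red cell markers measured differed by -0.22 (exact permutation p = 0.119, adjusted 0.208) and the 1 bile duct marker by 0.27 (exact permutation p = 0.214, adjusted 0.3).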
